A study of Mus musculus with 8 samples.

Results

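Satellite glia are the flat support cells that wrap the cell bodies of sensory neurons in the dorsal root ganglia, the clusters of neurons beside the spinal cord. Described here are 8 genes commonly used to mark them, Fabp7, Glul, Apoe, Cdh19, Ptprz1, Slc1a3, Gja1 and Ednrb. They were taken by gene symbol from both deposited tables, which list 48431 genes, and all 8 were above the filter on low values, among 14505 genes tested. The samples were ganglia of wild-type SW mice, Swiss Webster being an outbred stock, that had received saline, with 4 libraries labelled male and 4 labelled female and no other treatment or allele. The sources used here give no ages. Nothing in the labels says whether a library was made from 1 animal or from several, so p-values measure the spread between libraries, which may be partly technical. Values are reads per 1000000 counted reads (CPM) from libraries of transcript 3′ ends, in which a long and a short transcript are counted alike.

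Satellite glia form a sheath around each neuron and keep the space between sheath and neuron in order. They take up glutamate with a transporter encoded by Slc1a3 and turn it into glutamine with the enzyme encoded by Glul, and they are joined to each other by gap junctions, of which connexin 43, the product of Gja1, is a part. Fabp7 encodes a binding protein that carries fatty acids inside glial cells, and Apoe the lipid carrier of secreted lipoproteins. Cdh19 encodes a cadherin, an adhesion protein of the neural crest glial lineage. Ednrb and Ptprz1 encode cell surface receptors, for endothelins and for the growth factor pleiotrophin. No member belongs to satellite glia alone. Astrocytes of the brain and spinal cord express most of these genes, Schwann cells share some of them, and macrophages make Apoe.

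Facts of the libraries bear on every value below. The libraries held between 7497797 and 12155800 counted reads. By Xist, the RNA that silences an X chromosome in female cells, and the Y-linked gene Ddx3y, both replicate 1 libraries went against their labels. Xist read 294 CPM in male 1 and 0.270 CPM in female 1, and Ddx3y 0.855 and 102 CPM. All names of libraries below are those of the labels, and differences by label are given with and without both replicate 1 libraries. The library labelled male 2 held transcripts of the central nervous system, whose values follow beside the results they touch. Markers of sensory neurons were abundant throughout, at a summed level of 7923 to 16376 CPM over 7 genes. In whole ganglia, fewer glia and less RNA of a gene per glial cell cannot be told apart.

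The 8 genes lie on 6 autosomes, all as protein-coding genes in the GENCODE M21 annotation of GRCm38. On chromosome 10 are Fabp7 (ENSMUSG00000019874.11, 57784881 to 57788450) and Gja1 (ENSMUSG00000050953.9, 56377330 to 56402513), and on chromosome 1 are Glul (ENSMUSG00000026473.15, 153899944 to 153909723) and Cdh19 (ENSMUSG00000047216.8, 110888326 to 110977584). Apoe (ENSMUSG00000002985.16) lies on chromosome 7 at 19696109 to 19699188 and Ptprz1 (ENSMUSG00000068748.7) on chromosome 6 at 22875502 to 23052916. Slc1a3 (ENSMUSG00000005360.14) lies on chromosome 15 at 8634124 to 8710764 and Ednrb (ENSMUSG00000022122.14) on chromosome 14 at 103814625 to 103844402. Exons of Glul overlap those of Teddm2 on the other strand, a gene at no more than 1.63 CPM, and those of Mir8114, which was listed at 0. Whether the counting used strand was not stated. The exons of the other 7 members overlapped no exon of another annotated gene. Outside shared exons, Gm38255 and Gm36944 (at most 5.44 and 8.72 CPM) overlap Cdh19 on its own strand. Gm37310, at no more than 0.294 CPM, overlaps Slc1a3 in the same way.

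The stretches before the starts of 5 members are shown because Fabp7, Apoe, Slc1a3 and Gja1 were all high in the libraries labelled male 1, male 2 and female 2 and Ptprz1 was low there, as described below. RefSeq (GRCm38.p6) holds a promoter entry for 7 of the 8 members. Ednrb was also low in those libraries, but its run is not shown, since GENCODE places its start upstream of the RefSeq stretch. Each run ends before the start that GENCODE or RefSeq places furthest upstream and is written 5′ to 3′ along the gene's strand. Capitals mark either of a pair of motifs on either strand, ACAAAG (or CTTTGT), a core sequence bound by SOX factors, and TGGGAA (or TTCCCA), the core bound by the Notch pathway factor RBPJ. The motifs do not overlap each other in these runs.
Fabp7, chr10:57784673-57784880, plus strand: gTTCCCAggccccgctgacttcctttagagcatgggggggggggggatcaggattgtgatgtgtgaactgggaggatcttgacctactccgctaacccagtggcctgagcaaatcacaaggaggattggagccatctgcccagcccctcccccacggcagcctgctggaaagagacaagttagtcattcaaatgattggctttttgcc
Apoe, chr7:19699189-19699438, minus strand: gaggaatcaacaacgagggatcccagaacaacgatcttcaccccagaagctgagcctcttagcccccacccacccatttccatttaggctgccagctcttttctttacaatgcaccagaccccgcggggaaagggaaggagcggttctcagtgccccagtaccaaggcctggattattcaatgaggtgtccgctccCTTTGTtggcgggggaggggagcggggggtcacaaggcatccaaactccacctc
Slc1a3, chr15:8710808-8711057, minus strand: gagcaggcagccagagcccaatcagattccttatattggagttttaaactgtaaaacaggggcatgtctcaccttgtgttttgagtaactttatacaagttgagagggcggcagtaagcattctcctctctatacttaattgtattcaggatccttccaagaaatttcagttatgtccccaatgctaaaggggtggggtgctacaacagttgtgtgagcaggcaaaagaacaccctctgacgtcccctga
Gja1, chr10:56377050-56377299, plus strand: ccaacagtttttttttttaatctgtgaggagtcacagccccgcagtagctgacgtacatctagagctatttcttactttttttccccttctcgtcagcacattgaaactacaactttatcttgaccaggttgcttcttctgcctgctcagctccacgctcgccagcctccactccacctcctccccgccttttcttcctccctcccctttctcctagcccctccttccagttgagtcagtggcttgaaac
Ptprz1, chr6:22875252-22875501, plus strand: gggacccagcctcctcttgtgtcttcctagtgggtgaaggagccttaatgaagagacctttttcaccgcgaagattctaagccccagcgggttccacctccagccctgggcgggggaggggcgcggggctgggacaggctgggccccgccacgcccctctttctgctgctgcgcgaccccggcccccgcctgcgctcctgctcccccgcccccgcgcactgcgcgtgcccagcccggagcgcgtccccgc
The SOX core was found in the run of Apoe and the RBPJ core in that of Fabp7, and no match of either was found in the runs of Slc1a3, Gja1 and Ptprz1. Among 32851 promoter windows of mouse genes, 16.5% held the SOX core and 21.6% the RBPJ core in the same 250 bases, and 18.5% held the RBPJ core in 208 bases, the length shown for Fabp7. These matches are letters in a window, not sites of binding. The 5 runs differed in base composition. That of Ptprz1 was 71.6% G and C with 22 CG pairs, and that of Slc1a3 44.8% with 2. Fabp7 had 56.2% with 3 CG pairs, Apoe 57.2% with 8 and Gja1 50% with 6.

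Apoe was the most abundant of the 8 genes in each of the 8 libraries and Gja1 the least abundant. Mean levels over the libraries were 420.0 CPM for Apoe, 201 for Fabp7, 172 for Glul, 168 for Ednrb, 67.5 for Ptprz1, 39.6 for Cdh19, 30.4 for Slc1a3 and 17.5 for Gja1. The ranges of neighbours in that order overlapped for all but Ednrb with Ptprz1 and Ptprz1 with Cdh19. Apoe lay above Fabp7 in every library, whereas Fabp7, Glul and Ednrb changed places from library to library. Each member rested on between 83 and 6891 reads per library. The 95% exact binomial interval, which covers counting error only, reached at most 22.2% of the value to either side, for Gja1 in the library labelled female 1 (5.96 to 9.27 CPM).

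**Figure D1:**
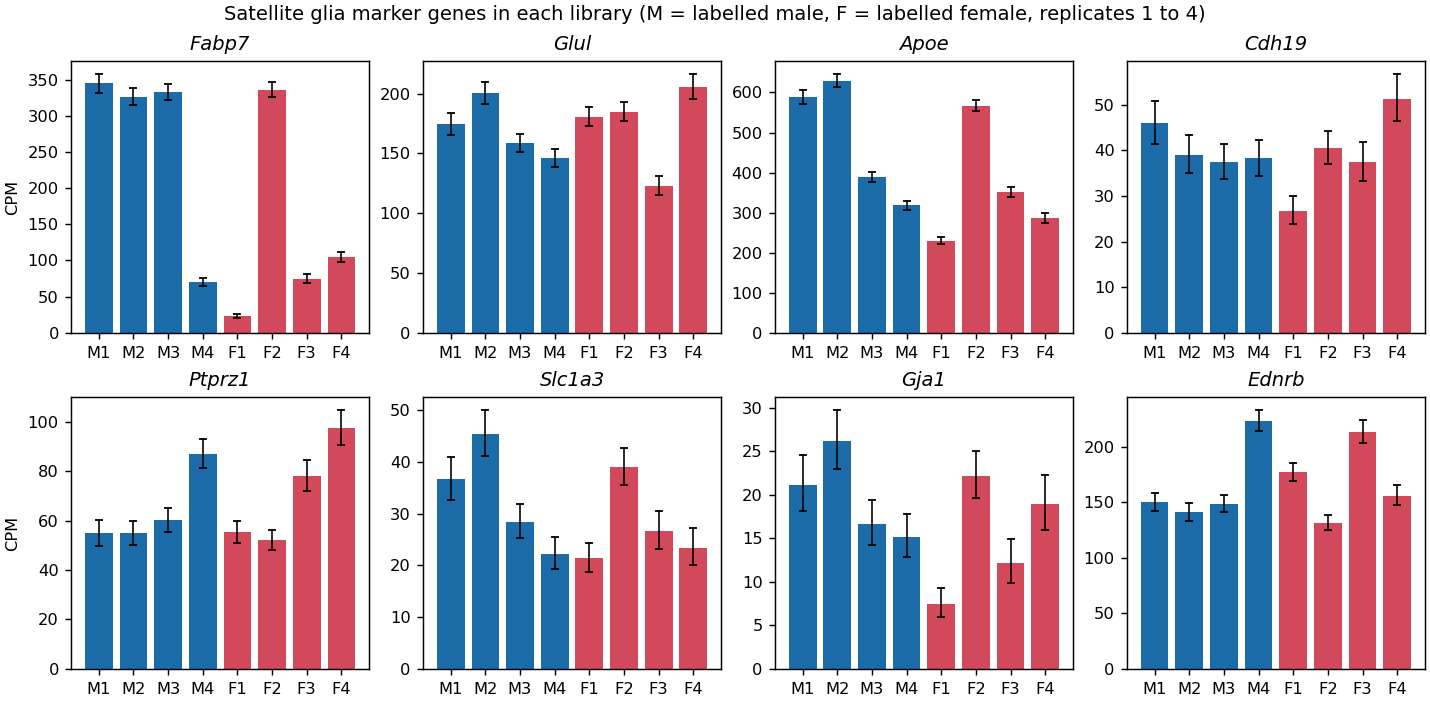
Level of each of the 8 genes (CPM, vertical axis, starting at 0) in every library, with M1 to M4 labelled male and F1 to F4 labelled female; error bars are 95% exact binomial intervals. Fabp7 lies at 326 to 345 CPM in 4 libraries and at 22.9 to 104 CPM in the other 4, while Glul and Cdh19 vary less than 2-fold.

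Among the lipid carriers, Fabp7 varied most. It stood at 345, 326, 332 and 70.6 CPM in the libraries labelled male 1 to 4 and at 22.9, 335, 74.9 and 104 CPM in those labelled female 1 to 4. Thus 3 libraries labelled male and 1 labelled female lay within 326 to 345 CPM, the other 4 lay at or below 104 CPM, and the labels overlapped. The highest library was 15.1-fold above the lowest (4.88-fold without female 1), and the SD of log2(CPM + 1) was 1.45, larger than that of 99.4% of tested genes. Without the library labelled female 1 the lowest value was the 70.6 CPM of male 4. Apoe stood at 589, 629.6, 389 and 318 CPM in male 1 to 4 and at 230 (2547 reads), 567, 352 and 286 CPM in female 1 to 4. Its order began with male 2, male 1, female 2 and male 3, the same 4 libraries as for Fabp7, but the step from these to the next library was only from 389 to 352 CPM, and the whole range was 2.74-fold (SD 0.53).

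Of the glutamate genes, Slc1a3 followed the order of Apoe more closely than that of Glul. Slc1a3 stood at 36.7, 45.5, 28.4 and 22.3 CPM in male 1 to 4 and at 21.4, 39.0, 26.7 and 23.5 CPM in female 1 to 4, a 2.13-fold range. Male 2 was highest and female 1 lowest, and the values of male 3 and female 3, at 28.4 and 26.7 CPM in the middle of the order, lay within each other's counting intervals. Glul, Cdh19 and Ednrb had the smallest SDs of the 8 genes over all libraries on the CPM scale (0.25, 0.26 and 0.28, smaller than those of all but 13.2%, 16.6% and 19.2% of tested genes). Which of them was smallest changed with the scaling and with single libraries, and Ednrb did not always stay among them. Its SD lay above that of Slc1a3 under median ratio scaling (0.38 and 0.29). Without female 4 it lay above that of Ptprz1 (0.298 and 0.285). Glul stood at 174, 201, 159 and 146 CPM in male 1 to 4 and at 181, 185, 123 and 206 CPM in female 1 to 4. Female 3 was lowest and female 4 highest, and the labels overlapped.

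Of the junction and adhesion genes, Gja1 varied 3.50-fold (2.14-fold without female 1) and Cdh19 1.92-fold (1.37-fold without female 1). Gja1 stood at 21.1, 26.2, 16.7 and 15.2 CPM in male 1 to 4 and at 7.48, 22.2, 12.2 and 18.9 CPM in female 1 to 4. Female 1 was lowest, with 83 reads. Cdh19 stood at 45.9, 39.0, 37.5 and 38.3 CPM in male 1 to 4 and at 26.8, 40.5, 37.4 and 51.3 CPM in female 1 to 4. Outside female 1 at the low end and female 4 at the high end, its values lay between 37.4 and 45.9 CPM.

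The receptor genes ran in another order. Ptprz1 stood at 54.9, 54.9, 60.2 and 87.0 CPM in male 1 to 4 and at 55.3, 52.2, 78.1 and 97.4 CPM in female 1 to 4. Female 4, male 4 and female 3 were high and the other 5 lay between 52.2 and 60.2 CPM. Ednrb stood at 150.2, 141, 148 and 223 CPM in male 1 to 4 and at 177, 132, 214 and 156 CPM in female 1 to 4, with male 4 and female 3 highest. The 4 libraries that were highest for Fabp7 were the 4 lowest for Ednrb, though the nearest values on both sides, 150.2 and 156 CPM, lay within each other's counting intervals.

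**Figure D2:**
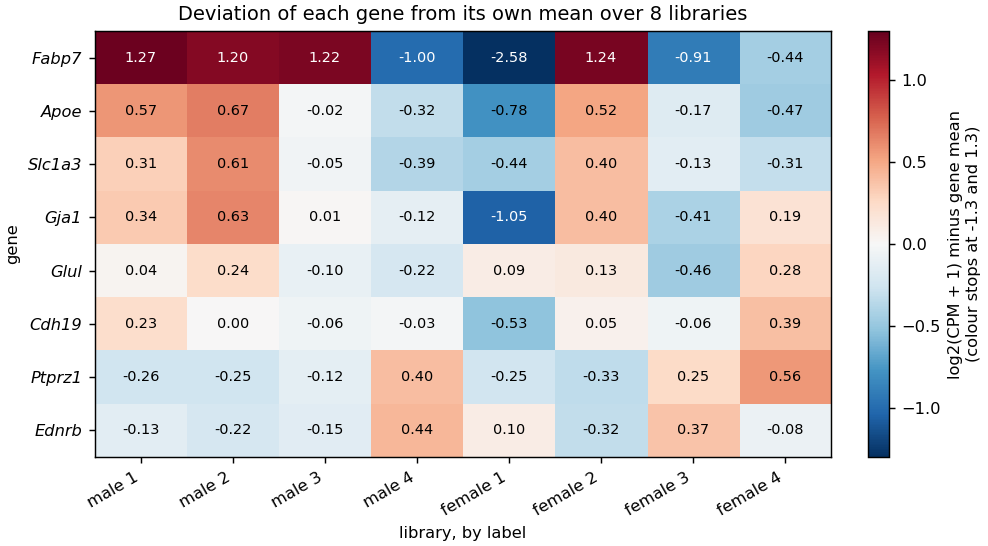
Deviation of each gene (rows) from its own mean over the 8 libraries (columns, by label), as log2(CPM + 1), printed in each cell. Fabp7, Apoe, Slc1a3 and Gja1 deviate upward in male 1, male 2 and female 2, where Ptprz1 and Ednrb deviate downward.

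The 4 libraries with the most Fabp7 were also the highest for many other genes. They were the 4 highest for Apoe and Slc1a3 among the other 7 members, and for 3351 of the other 14504 tested genes, 23.1%. They were the 4 lowest for Ednrb, and for 10.2% of the other tested genes. The members' shares, 2 of 7 and 1 of 7, stand near those of all genes. Under median ratio scaling, which sets each library by the median gene, female 3 stood above male 3 for Apoe (392 and 383 scaled CPM) and for Slc1a3 (29.8 and 28.0), so that both lost this match, while Ednrb kept it. On the first principal component of all tested genes, which held 59.3% of the variance, these libraries had scores of −44.2 (male 1), −59.2 (male 2), −23.6 (male 3) and −52.3 (female 2), and the other 4 had scores of 30.3 to 58.3. A gene of the ribosomal RNA locus, AY036118, was listed at 0 in male 4, female 3 and female 4, and stood at 20085 to 46216 CPM in the other 5 libraries, of which female 1 (43401 CPM) had the least Fabp7. The part of such differences between libraries in the members' levels was not tested.

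Pairs of members were compared by their ratio within each library. SDs are of log2 ratios of values with 1 CPM added, and the ratios printed are of CPM itself. Of the 28 pairs, Apoe and Slc1a3 kept the steadiest ratio, with an SD of 0.18 on the log2 scale. There were 16.1, 13.8, 13.7 and 14.3 reads of Apoe for each read of Slc1a3 in male 1 to 4, and 10.7, 14.5, 13.2 and 12.2 in female 1 to 4. Both genes thus varied more than 2-fold while their ratio stayed between 10.7 and 16.1. Without male 2 the SD was 0.20. The pair was not closest to each other among all genes, since 82 tested genes had a profile nearer to Apoe than that of Slc1a3 was, and 124 had a profile nearer to Slc1a3 than that of Apoe.

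Ptprz1 and Ednrb formed the next steadiest pair, with an SD of 0.28. Their ratio was 0.312 to 0.406 in 7 libraries and 0.624 in female 4, where Ptprz1 was at its highest and Ednrb was not. Apoe with Gja1 and Glul with Cdh19 had SDs of 0.31 each. The 7 pairs that contain Fabp7 were the 7 least steady, with SDs of 1.01 with Apoe up to 1.66 with Ednrb. Fabp7 stood at 2.24 to 2.55 reads for each read of Ednrb in male 1, male 2, male 3 and female 2. In male 4, female 1, female 3 and female 4 there were 0.316, 0.129, 0.350 and 0.669. Set against Cdh19, another gene of the glial lineage, Fabp7 stood at 7.50 to 8.87 reads per read in the first 4 libraries and at 0.855 to 2.03 in the others.

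**Figure D3:**
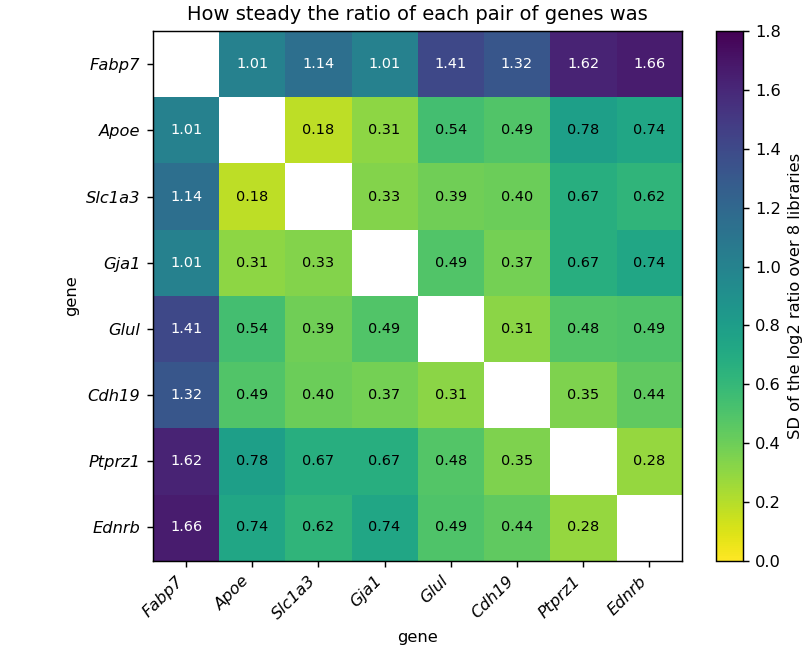
SD over the 8 libraries of the log2 ratio between each pair of the 8 genes (colour and printed value; a small SD is a steady ratio). Apoe with Slc1a3 is lowest at 0.18, and the row of Fabp7 holds the 7 highest values, from 1.01 to 1.66.

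Genes whose profile over the 8 libraries lay closest to that of a member were named by the root mean square difference of log2(CPM + 1) around each gene's own mean. For Fabp7 these were Gm26819 (0.27), Prg4, which encodes the lubricating protein lubricin (0.30), and Tpst1, a tyrosylprotein sulfotransferase gene (0.30). Prg4 stood at 89.7, 92.4, 79.2 and 17.0 CPM in male 1 to 4 and at 10.3, 87.4, 21.4 and 24.4 CPM in female 1 to 4. The nearest member to Fabp7 was Apoe, at 0.94, with 1951 genes nearer than that. Closest to Apoe were the dynein light chain gene Dynll1 (0.085), Stx8 and Copa. Closest to Slc1a3 were Eif3f (0.07), which encodes a subunit of a translation initiation factor, Mark4 and A230052G05Rik. Closest to Glul were Atp8b2 (0.09), Pramef8 and Sccpdh, and to Gja1 Sh2b2 (0.12), Appl2 and Cryzl1. Cdh19 was nearest to Sycp3 (0.07), Gm26903 and the chaperone gene Canx. The phosphatase gene Dusp1 (0.06), Svbp and the myosin gene Myh10 lay nearest to Ptprz1, and Taok2 (0.09), Nom1 and Fbxo28 nearest to Ednrb. All 8 libraries are shared by these profiles, and the likeness is a description without a test.

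The comparison that the labels allow asks whether these genes differed between female and male ganglia. None of the 8 members passed the test by label. Limma's moderated test on log2(CPM + 1), at an adjusted p (Benjamini-Hochberg, all tested genes) of at most 0.05, called 0 of 8 members and 0 of 14505 genes (0%). At an unadjusted p under 0.05 there were 0 of 8 members and 1595 genes (11%). The labels overlapped for all 8 members, where 613 of all tested genes (4.23%) did not overlap. The members had a median log2 difference, female minus male, of −0.16 with 5 of 8 negative, and all tested genes one of −0.18 with 67.5% negative. Median ratio scaling moved that median of all genes to −0.02 (51.5% negative), so directions below are to be read against −0.18.

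Fabp7 had the largest difference among the members. Its mean was 268 ± 132 CPM by male label and 134 ± 138 CPM by the female one (SD, n = 4 each). On the log2 scale Fabp7 differed by −1.35 (SE 0.73, 95% interval −2.96 to 0.27, limma adjusted p = 0.457). The spread within each label was as large as the difference. Without both replicate 1 libraries the means were 243 ± 149 and 172 ± 143 CPM (SD, n = 3 each), with a log2 difference of −0.51 and an interval of −2.15 to 1.12 (limma adjusted p = 0.948). The difference of Fabp7 depended on single libraries. Without female 2, the library labelled female with high Fabp7, it was −1.98 and passed at a limma adjusted p of 0.0489, where 9.31% of all genes passed and 7.64% passed as lower. With each library weighted by its fit (limma's array weights, lowest for female 2 and male 4), Fabp7 (−1.74) and Apoe (−0.77) passed, where 30.1% of all genes passed and 22% passed as lower. Without female 1 it was −0.71 and did not pass.

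The other members differed by less. Apoe had means of 481 ± 151 (male label) and 359 ± 148 CPM (female label; SD, n = 4 each), a log2 difference of −0.45 with an interval of −1.16 to 0.26 (limma adjusted p = 0.509). Without both replicate 1 libraries that of Apoe was −0.15. Gja1 averaged 19.8 ± 4.97 and 15.2 ± 6.62 CPM, a log2 difference of −0.43 (interval −1.15 to 0.28), which was −0.12 without both replicate 1 libraries. Slc1a3 averaged 33.2 ± 10.1 and 27.6 ± 7.88 CPM, with a log2 difference of −0.25 (interval −0.84 to 0.35), which was −0.076 without both replicate 1 libraries and −0.082 without male 2 alone. The log2 differences of Cdh19, Glul, Ednrb and Ptprz1 were −0.07 (0.12 under median ratio scaling), 0.02, 0.04 and 0.12, with intervals that lay within −0.56 to 0.67. With intervals of this width, equal levels of these 4 genes by label are not shown.

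Without both replicate 1 libraries 0 of 8 members passed, beside 6 of 14568 genes (0.0412%). At an unadjusted p under 0.05 there were 0 members and 353 genes (2.42%), and the labels overlapped for all 8 members where 7.59% of genes did not overlap. The median over the members was −0.05, with 5 of 8 negative, and that over all genes −0.12, with 64.3% negative. Cdh19 and Ednrb changed sign, to 0.15 and −0.031, and Glul and Ptprz1 stood at 0.0043 and 0.15.

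**Figure D4:**
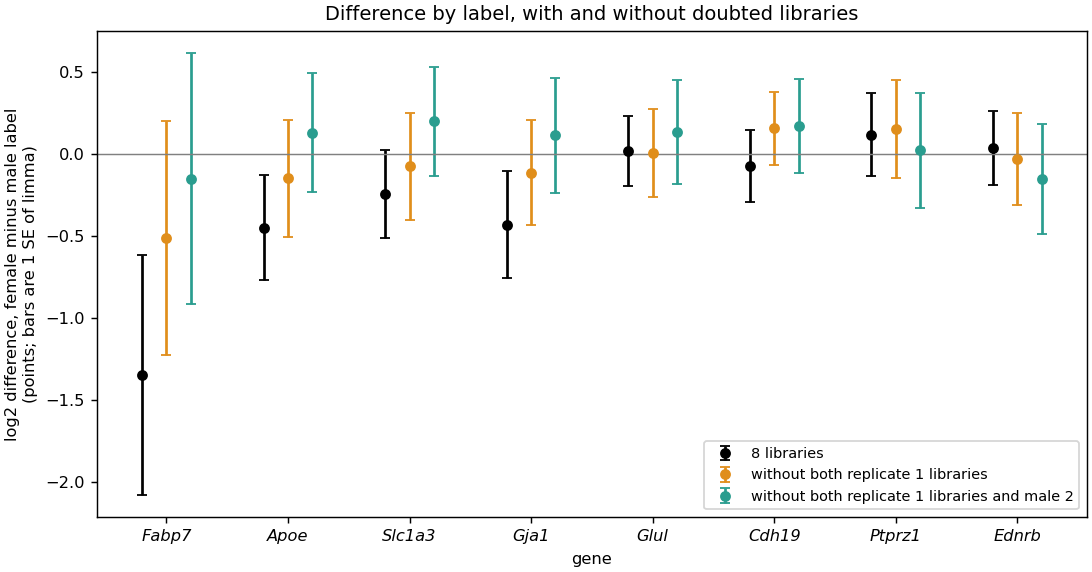
Log2 difference of each gene, libraries labelled female minus those labelled male, with 1 SE from limma, over all 8 libraries (black), without both replicate 1 libraries (orange) and without these and male 2 (green). The difference of Fabp7 goes from −1.35 to −0.51 and −0.15, and those of Apoe, Slc1a3 and Gja1 end above 0.

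Astrocytes express most of the members, and the library labelled male 2 had the highest level of 3 of the 8. Apoe, Slc1a3 and Gja1 were highest there, at 1.79, 1.70 and 1.57 times the median of the other 7 libraries. Fabp7 in male 2 was 3.12 times that median but within the range of the others, and Glul 1.15, Cdh19 1.02, Ptprz1 0.912 and Ednrb 0.904 times it. Of 7 astrocyte genes, 6 were highest in male 2, the exception being Aldh1l1, and their summed level was 181 CPM there, against 21.0 to 48.0 CPM in the other 7 libraries. The share of all tested genes that were highest in male 2 was not computed, so these counts have no background. Male 2 also had the lowest score on the first principal component (−59.2). Apoe in male 2 (629.6 CPM) lay close to that in male 1 (589 CPM). The astrocyte glutamate transporter gene Slc1a2 stood at 58.8 CPM there and at 1.47 to 8.19 CPM elsewhere, and Slc7a10 was at 0 in 5 of the others. Oligodendrocyte genes summed to 133 CPM against 9.21 to 19.7 CPM, with Mog at 37.1 CPM against at most 1.23. The part of such transcripts in the members' levels was not tested. With male 2 left out the range of Apoe was 2.56-fold, that of Slc1a3 1.83-fold and that of Gja1 2.97-fold, and Fabp7 kept its 15.1-fold range, since neither its highest nor its lowest library was male 2. With both replicate 1 libraries and male 2 left out, Apoe, Slc1a3 and Gja1 had log2 differences by label of 0.13, 0.20 and 0.11.

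**Figure D5:**
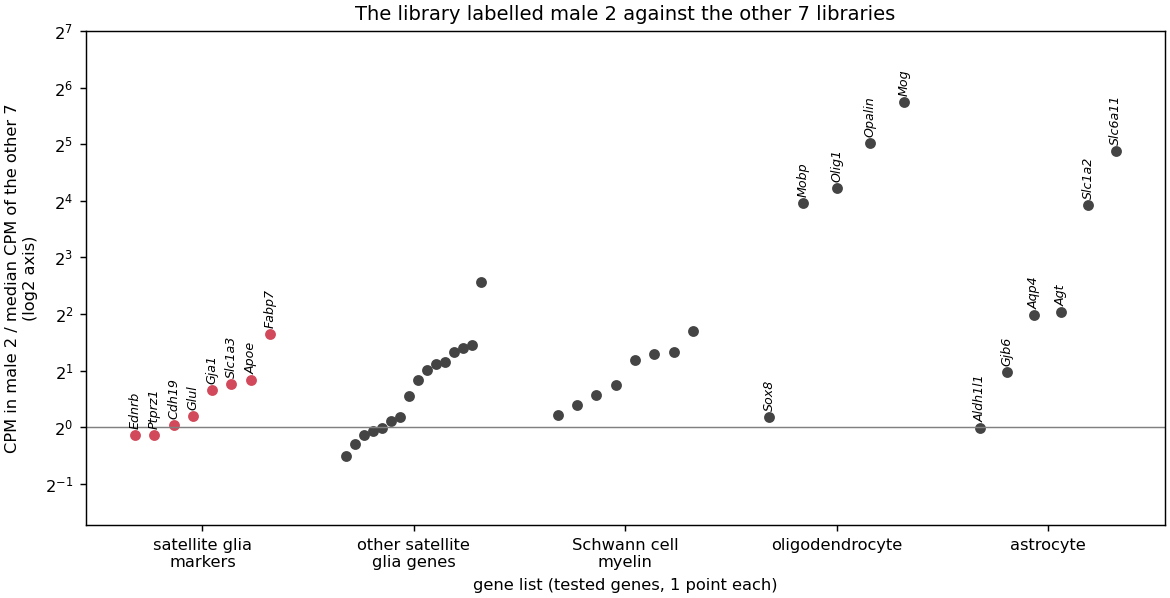
Level in the library labelled male 2 divided by the median of the other 7 libraries (log2 axis), 1 point per tested gene, for the 8 members (red) and 4 other lists (grey). Mog, Opalin, Olig1, Mobp, Slc6a11 and Slc1a2 lie 15-fold or more above 1, and the members between 0.904 and 3.12.

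Other genes expressed by satellite glia did not pass by label either. Of 17 such genes listed, 16 were tested, 0 passed, and 10 were negative, with a median log2 difference of −0.22 (−0.07 without both replicate 1 libraries, 0 called). The most abundant was S100b, which encodes a calcium-binding protein of glia (1918 to 3871 CPM). Kcnj10, the gene of the potassium channel Kir4.1 that clears potassium around neurons, stood at 24.6, 38.4, 14.5 and 17.3 CPM in male 1 to 4 and at 13.4, 18.9, 8.95 and 11.7 CPM in female 1 to 4. Its log2 difference was −0.74 (limma adjusted p = 0.446; −0.72 without both replicate 1 libraries), and that of Atp1b2, a sodium pump subunit gene, −1.09 (0.446; −0.88). Both were highest in male 2, the library with central nervous system transcripts, where Atp1b2 stood at 44.0 CPM against at most 28.7 CPM elsewhere, and the part of such transcripts was not tested. On the CPM scale the 4 libraries with the most Fabp7 were also the 4 highest for 6 of these 16 genes, Sox10, Sparc, Dbi, Atp1b2, Ttyh1 and Gpr37l1, beside 23.1% of all genes. Sox10, a transcription factor gene of glia, was singled out after its values were seen. It stood at 70.9, 61.9, 46.6 and 22.7 CPM in male 1 to 4 and at 13.6, 69.2, 18.3 and 16.4 CPM in female 1 to 4.

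The partners of the members in their pathways did not pass either. Of 12 other genes of glutamate handling, 0 passed and 10 were negative (median −0.50; −0.39 without both replicate 1 libraries). Among these Slc38a1, a glutamine transporter gene, had a log2 difference of −0.81 (−0.91 without both replicate 1 libraries) and Glud1, the glutamate dehydrogenase gene, varied from 117 CPM in female 3 to 429.8 CPM in male 2. Of 9 tested connexin and pannexin genes 0 passed and 5 were negative (median −0.05; 0.05). Panx1, a channel gene related in shape to connexins, ran from 56.8 CPM in male 2 to 239 CPM in female 1, where Gja1 was lowest, and Gjc3, a glial connexin gene, from 26.0 to 66.5 CPM. For Ednrb, 5 genes of the endothelin system were tested, 0 passed and 5 were negative (median −0.17; −0.19). The ligand gene Edn1 stood at 0.992 to 4.94 CPM and the converting enzyme gene Ece1 at 114 to 179 CPM.

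For Ptprz1, 7 ligands and relatives were tested, 0 passed and 7 were negative (median −0.32; −0.23 without both replicate 1 libraries). Ptn, the pleiotrophin gene, was lowest in female 1, at 38.6 CPM, and Cntn1, a cell adhesion gene, at 173 to 576 CPM with a log2 difference of −0.87 (−0.66). Of 11 lipoprotein receptor and lipid export genes 0 passed and 8 were negative (median −0.46; −0.14). Of the 3 other fatty acid binding protein genes tested, 0 had the same 4 highest libraries as Fabp7, beside 23.1% of all genes. Fabp3 stood at 180.0, 197, 391 and 242 CPM in male 1 to 4 and at 609, 269.9, 558 and 468 CPM in female 1 to 4. Fabp4 was highest in female 4 (716 CPM), and after it in male 3, male 1, female 2 and male 2 (437 to 299.9 CPM), the libraries with much Fabp7. Fabp5 was highest in male 2 and female 2 (82.8 and 77.7 CPM), and male 1, male 3 and female 4 lay close together at 39.4 to 41.1 CPM. Of 3 tested genes of that family, 0 passed and 2 were negative (median −0.0016; 0.55). Of 7 cadherin and catenin genes 0 passed and 3 were negative (median 0.03; 0.07), and Cdh1 ran from 426 CPM in male 1 to 1355 CPM in female 1. At an unadjusted limma p under 0.05 over the 8 libraries, beside 11% of all genes, there were 2 of the 16 other satellite glia genes, 3 of the 12 glutamate genes, 2 of the 9 connexins and pannexins and 0 of the 5 endothelin genes. There were 2 of the 7 Ptprz1 relatives, 3 of the 11 lipid genes, 1 of the 3 fatty acid binding protein genes and 1 of the 7 cadherins and catenins. With both replicate 1 libraries left out, beside 2.42% of all genes, there were 2 glutamate genes and 1 Ptprz1 relative, and 0 in each of the other 6 lists.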

How the data were processed

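Per the labels' protocols, TRIzol extraction and RiboCop removal of ribosomal RNA came before 3′ end libraries were made with QuantSeq reagents. The submitters' processing notes list Cufflinks 2.2.1, Bowtie2 2.2.9, TopHat2 2.1.1 and FastQC 0.11.5, with the builds GRCm38.p4 and mm10, without roles; the sources used here give no annotation, strand setting or filter. The authors deposited values named TPM, which behave as CPM and are so called. Each library sums to 1000000, and 98.3% to 98.6% of values above 0 and under 200 reads were whole numbers of reads (to within 0.05) when divided by 1 step per library, the same for all genes. The step gave the depth. No count model was used, since some values stayed fractional.

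Rows sharing a symbol were summed (110 symbols, 48315 left). Genes averaging 1 CPM or more in the fitted libraries were tested as log2(CPM + 1), a scale that understates changes of low genes, with limma 3.58.1 (R 4.3.3), with a trend of variance on level, two-sided, and p-values were adjusted by Benjamini-Hochberg over every gene tested. Intervals of differences are 95% from limma's posterior variance. The members, the lists and the rule for named genes (the members, their 3 nearest profiles, and in each list the 2 most abundant genes and the 2 with the smallest p) were chosen with earlier results of these data known. Alternatives were other pseudocounts, filters, scalings, variance models and weights, a replicate block, and leaving out libraries. All 28 pairs of libraries differed. Positions were matched by gene identifier without its version (99.2% of 48431 found). Plots were made with matplotlib 3.10.9. Some genes of the lists are counted but not reported by name here.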

Additional observations from a re-analysis of the deposited data

Results flagged for a closer look

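In 5 of 32 groups (8 genes and 8 summed marker lists, each by label), 1 library lay far from the remaining 3 with its label. The rule is set to flag about 1 in 20 groups that are independent of each other. These groups share the same 8 libraries, and genes and lists were chosen with earlier results known. The count of flags is thus a description and not a test. In 3 of the 5 flagged groups the far library was that labelled male 4. Fabp7 was at 70.6 CPM there and at 326 to 345 CPM in male 1 to 3, Ptprz1 was at 87.0 CPM and at 54.9 to 60.2 CPM in the others, and Ednrb was at 223 CPM and at 141 to 150.2 CPM in the others. Male 4 was the only library labelled male with a positive score on the first principal component (30.3), and the part of that in these values was not tested. In the other 2 groups it was male 2, with 133 CPM of summed oligodendrocyte genes against 10.5 to 15.1 CPM, and 181 CPM of summed astrocyte genes against 21.0 to 35.6 CPM, in the other libraries labelled male.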

How the results depend on the processing

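The count of members passing was 0 in all 8 libraries and also 0 under other pseudocounts, filters, scalings and without the variance trend. Array weights called 2 members, Fabp7 (−1.74, limma adjusted p = 0.0126) and Apoe (−0.77, 0.0250), but also 4363 genes, 30.1% of all. Leaving out 1 library at a time gave 0 to 1 members and 0 to 1351 genes, with the highest counts without female 2. Without both replicate 1 libraries 6 genes passed, and 4 with male 2 also left out. Within the 6 libraries other than replicate 1, 0 members passed under every alternative run, leaving out 1 library included (0 to 0). Of 152 alternative values of the members' differences, 128 kept their sign and side of the threshold, 3 passed newly (Fabp7 in 2, Apoe in 1) and 21 changed sign, none of them called; the cause was not tested. Cdh19 turned to 0.12 under median ratio scaling, 0.050 under quantile normalization, 0.10 with array weights, 0.15 without both replicate 1 libraries and 0.17 with male 2 also left out, where Apoe turned to 0.13, Slc1a3 to 0.20 and Gja1 to 0.11. Ednrb turned to −0.031 and −0.15 under these last 2 settings. Leaving out 1 library gave −0.074 to 0.17 for Glul, −0.21 to 0.090 for Cdh19, −0.050 to 0.27 for Ptprz1, −0.082 to 0.19 for Ednrb, −0.70 to −0.26 for Apoe, −0.42 to −0.082 for Slc1a3 and −0.64 to −0.16 for Gja1. Leaving out 1 library at a time for the spread was chosen after seeing the data, and gave SDs of 1.09 to 1.56 for Fabp7, 0.35 to 0.58 for Gja1 and 0.17 to 0.29 for Cdh19, each lowest without female 1. The difference of Fabp7 was negative under all 19 alternatives run, from −1.98 to −0.15. Median ratio scaling moved the median of all genes from −0.18 to −0.02 and the share negative from 67.5% to 51.5%, and under it Fabp7 still ranged 12.1-fold. Under that scaling SDs fell for Apoe (0.53 to 0.41), Gja1 (0.53 to 0.41) and Slc1a3 (0.39 to 0.29). They rose for Ptprz1 (0.35 to 0.42) and Ednrb (0.28 to 0.38), so the order of members by SD depended on the scaling. Libraries sharing replicate numbers 1 to 4 correlated at −0.31, 0.70, −0.15 and 0.44 in their deviations across genes. Those with unlike numbers correlated at −0.81 to 0.47. Whether the numbers pair the libraries cannot be told from these values, since 1 component held 59.3% of the variance. With the replicate number as a block 0 members and 0 genes passed. Depth limits Gja1 most, at 83 reads in female 1.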

Other observations

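Markers of the other cells of the ganglion moved in several directions across the libraries. Schwann cells wrap axons, and of 8 myelin genes tested by label 0 passed and 8 were negative (median −0.47; −0.28 without both replicate 1 libraries). Their summed level ran from 8544 CPM in female 3 to 19312 CPM in male 2. On the CPM scale the 4 libraries with the most Fabp7 were the 4 highest for 6 of the 8, beside 23.1% of all genes. These matches were not counted under median ratio scaling, under which Apoe and Slc1a3 lost theirs. Pmp22, a myelin protein gene, stood at 2339, 3126, 2397 and 1249 CPM in male 1 to 4 and at 594, 2539.5, 804 and 1184 CPM in female 1 to 4. Fibroblast genes summed to 589 CPM in female 1 and 2278 CPM in female 2, with 0 of 5 passing (median −0.38; 0.01).

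Macrophages are another source of Apoe. Their 7 listed genes summed to 120 to 197 CPM by male label and 208 to 317 CPM by female label, without overlap. Of all genes taken singly 4.23% did not overlap, and no such share was computed for sums of lists. The lowest sum was in male 1 (120 CPM), where Apoe was next to highest, and female 1 had 270.4 CPM. Single macrophage genes differed in their order. On the CPM scale the 4 libraries highest for Fabp7 and Apoe were also the 4 highest for Csf1r and Adgre1, beside 23.1% of all genes. They were the 4 lowest for Aif1, beside 10.2% of all genes. The part of macrophages in the level of Apoe was not tested. Without both replicate 1 libraries the sums were 149 to 197 and 208 to 317 CPM, still without overlap, where 7.59% of genes taken singly did not overlap. The level came mostly from C1qa, at 72.2 to 264 CPM, with a log2 difference of 1.04 (0.86 without both replicate 1 libraries). Aif1 and Cx3cr1 were positive too, at 0.53 and 0.13 (0.52 and 0.052 without both replicate 1 libraries). C1qb, Csf1r and Adgre1 had log2 differences of −0.48, −0.88 and −0.66. Csf1r stayed at 0.361 to 8.31 CPM and Cd68 was under the filter. Of 6 tested macrophage genes 0 passed (median −0.18; −0.16). Sensory neuron genes had 0 of 7 passing (median −0.06; −0.09), and their summed level was highest in female 1 and lowest in male 2. Of 5 endothelial genes 0 passed (median −0.19; −0.17), with sums of 99.4 to 129 CPM. Of the central nervous system lists, 0 of 6 astrocyte genes (median −0.40; −0.27) and 0 of 5 oligodendrocyte genes (median −0.23; −0.50) passed. At an unadjusted limma p under 0.05, beside 11% of all genes, there were 2 of 8 Schwann cell, 2 of 6 macrophage, 2 of 7 sensory neuron and 1 of 5 endothelial genes, and 0 fibroblast, astrocyte and oligodendrocyte genes. In the 6 libraries other than replicate 1, beside 2.42% of all genes, there was 1 macrophage gene and 0 in the other lists.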
